A study of Mus musculus with 14 samples.

Results

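The Hist1 cluster of mouse chromosome 13 was examined in promoter capture Hi-C (PCHi-C) maps of cranial neural crest cells (CNCCs), the cells that build most of the facial skeleton. Its members were all genes on chromosome 13 whose GENCODE vM21 symbol starts with Hist1h. There were 56 such genes. Of these, 46 had a start site on a captured HindIII fragment (a bait) and 10 did not, and several baits held more than 1 gene, so that the 46 genes lay on 27 of the 22171 baits seen in the maps. The choice of members used names and positions and no measured value. By histone type the 56 genes were 6 of H1, 15 of H2A, 15 of H2B, 9 of H3 and 11 of H4.

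The 14 maps came from 7 conditions, each with 2 replicates that the methods state to be biologically independent. RFP-sorted CNCCs of Wnt1::Cre;ROSA RFP embryos came, at E10.5 (embryonic day), from the future midface (frontonasal process, FNP), from the upper and lower jaw parts of the first pharyngeal arch (maxillary, Mx, and mandibular, Md) and from the second pharyngeal arch (PA2). Pinna (outer ear) CNCCs of the same genotype were taken at E12.5 and E14.5, the latter after dissociation with papain and all others after trypsin. The Hoxa2 knockout (Hoxa2KO) cells were GFP-sorted PA2 CNCCs of E10.5 Hoxa2EGFP/EGFP embryos, so that reporter, sort and genotype differed together from wild-type PA2 and cannot be told apart. FNP, Mx and Md are the Hox-negative populations, and PA2 and pinna the Hoxa2-expressing ones. All Hox-negative libraries were from E10.5, while 4 of the 6 Hoxa2-expressing ones were from later pinna. Hox status, stage and tissue therefore differ together between these sets and cannot be told apart. Pinna and PA2 likewise differ in both stage and tissue. Wnt1::Cre marks the whole neural crest lineage and no single cell type within it. The maps hold contacts only, so the identity of the cells could not be checked against expressed markers.

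Replication-dependent histone genes encode the core histones H2A, H2B, H3 and H4 and the linker histone H1 that package newly copied DNA. They are switched on together in S phase, lack introns, and give transcripts that end in a stem loop, bound by the stem-loop binding protein Slbp, in place of a poly(A) tail. Their transcription and processing factors, among them Npat, gather at the gene clusters in nuclear histone locus bodies. In the mouse the main cluster is broken up by a long stretch of vomeronasal receptor (Vmn1r) genes.

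A new subcluster began wherever consecutive start sites lay more than 100 kb apart. The centromeric subcluster (chr13:21716143-21833771, mm10) held 19 genes, 11 of them with a bait, on 6 baits. The middle subcluster (chr13:22035568-22043214) held 5 genes, 4 of them with a bait, on 2 baits. The telomeric subcluster (chr13:23531050-23763666) held 29 genes, 28 of them with a bait, on 17 baits. Between the middle and the telomeric subclusters lay a gap of 1.49 Mb. One further bait carried Hist1h2aa and Hist1h2ba, the testis-specific pair of H2A and H2B genes, and another carried Hist1h2al, an annotated H2A pseudogene at chr13:51203065.

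Promoters of the members on which the results below turn are shown here: 1 from each of the 3 subclusters, that of Hist1h2ae, the Hist1h bait seen most often with another chromosome, and that of Hist1h2bm, on the bait that fell in the knockout. RefSeq promoter windows (GRCm38.p6, 250 bases before to 50 after the start site) matched 51 of the 56 genes by name or synonym. Capitals mark exact matches, on either strand, to the octamer known from H2B promoters (ATTTGCAT), to the TATA box letters (TATAAA), to the CCAAT box and to the H1 box (AAACACA), and no matches overlapped in the windows shown.
Hist1h2ai (RefSeq H2ac13, chr13:21716162-21716461, plus strand): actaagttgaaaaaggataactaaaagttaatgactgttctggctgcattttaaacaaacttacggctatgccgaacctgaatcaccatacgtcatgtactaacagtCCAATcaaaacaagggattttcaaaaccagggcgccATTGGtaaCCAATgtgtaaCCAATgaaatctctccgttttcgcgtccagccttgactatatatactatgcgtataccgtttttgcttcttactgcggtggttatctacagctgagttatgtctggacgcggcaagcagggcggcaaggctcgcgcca
Hist1h4i (RefSeq H4c9, chr13:22041313-22041612, minus strand): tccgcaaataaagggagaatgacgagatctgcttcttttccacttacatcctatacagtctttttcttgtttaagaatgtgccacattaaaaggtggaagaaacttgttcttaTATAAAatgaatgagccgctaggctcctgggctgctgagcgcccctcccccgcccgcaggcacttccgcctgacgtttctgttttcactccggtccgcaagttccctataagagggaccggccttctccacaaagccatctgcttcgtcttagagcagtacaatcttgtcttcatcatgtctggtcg
Hist1h3e (RefSeq H3c6, chr13:23562336-23562635, minus strand): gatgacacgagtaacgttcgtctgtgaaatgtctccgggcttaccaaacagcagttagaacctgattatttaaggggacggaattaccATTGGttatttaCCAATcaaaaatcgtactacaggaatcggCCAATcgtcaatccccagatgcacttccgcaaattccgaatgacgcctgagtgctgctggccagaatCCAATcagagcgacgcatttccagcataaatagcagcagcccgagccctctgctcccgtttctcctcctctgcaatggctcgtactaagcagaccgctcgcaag
Hist1h2ae (RefSeq H2ac8, chr13:23571171-23571470, minus strand): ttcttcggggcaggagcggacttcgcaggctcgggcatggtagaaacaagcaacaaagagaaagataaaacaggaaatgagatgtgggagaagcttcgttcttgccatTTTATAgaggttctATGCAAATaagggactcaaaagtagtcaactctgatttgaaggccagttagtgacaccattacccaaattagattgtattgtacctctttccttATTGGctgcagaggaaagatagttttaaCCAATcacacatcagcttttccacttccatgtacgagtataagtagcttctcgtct
Hist1h2bm (RefSeq H2bc14, chr13:21721794-21722093, plus strand): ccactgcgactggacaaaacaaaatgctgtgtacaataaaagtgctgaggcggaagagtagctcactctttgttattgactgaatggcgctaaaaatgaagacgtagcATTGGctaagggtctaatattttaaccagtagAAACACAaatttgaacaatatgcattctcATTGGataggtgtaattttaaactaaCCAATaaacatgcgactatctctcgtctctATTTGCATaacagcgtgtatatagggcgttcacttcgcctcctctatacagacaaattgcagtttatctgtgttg

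The window of Hist1h2ai, an H2A gene, lies between that gene and Hist1h2bl, the H2B gene transcribed the other way. CCAAT was present in 43 of the 51 Hist1h windows and in 37.4% of the 32851 RefSeq windows, and TATAAA in 31 against 13.6%. The octamer occurred in 10 of the 51 windows, 5 of H2A and 5 of H2B genes, against 1.74% of all windows. Windows of neighboring H2A and H2B genes can overlap, as those of Hist1h2ae and Hist1h2bg do. A single match can then count for both genes, for every motif here, so the 51 windows are not independent. The H1 box occurred in 9, of which 5 belonged to the 6 H1 genes, against 7.18% of all windows. All 13 matched H2A, 14 H2B, 7 H3 and 6 H1 windows held CCAAT but only 3 of the 11 H4 windows did. A match is a description of the letters, not a site or a cause.

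A contact is given here by its CHiCAGO score, which rises as the reads joining a bait to another fragment exceed what distance and fragment noise alone give in the same library. Pairs with a score below 5 were not listed in the maps and were set to 0. Each library listed between 119370 and 499756 pairs, of which 113670 to 186248 joined fragments of 1 chromosome. The knockout libraries were the lowest of the 14 in same-chromosome pairs. Md replicate 1 and E12.5 pinna replicate 2, named as merged libraries, listed far more pairs between chromosomes and were left out of counts of such pairs. The read depth behind the scores is unknown.

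Hist1h baits were among the most connected in the genome. Averaged over the 14 libraries, the 27 baits listed a median of 45.7 same-chromosome pairs (range 4.5 to 153.6), against a median of 4.43 over all baits. Of the 27, 23 lay above the 95th percentile of all baits (26.9 pairs), a level that 4.99% of all baits passed. The bait of Hist1h2af, Hist1h3g and Hist1h4h, H2A, H3 and H4 genes at the centromeric edge of the telomeric subcluster, listed 117 to 176 pairs with a median of 155. That of Hist1h2ai and Hist1h2bl listed 80 to 180 with a median of 139.5, and the H2A bait of Hist1h2ae listed 73 to 148 with a median of 112. Both knockout libraries gave the lowest values of the Hist1h2ai/Hist1h2bl and Hist1h2ae baits.

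The 3 baits with the fewest pairs differed in kind. The Hist1h2bh/Hist1h3f bait, of an H2B and an H3 gene within the telomeric subcluster, listed 0 to 2 pairs in 11 libraries but 17 in Md replicate 2, and 12 and 22 in the E14.5 pinna replicates. It shared 17.4% of its 75-base stretches, the length of a read, with the rest of the Hist1 region. The highly connected Hist1h2ai/Hist1h2bl bait shared 24.8%, and the Hist1h2aj/Hist1h2bm/Hist1h3h bait, with few pairs, shared less than either. The part of shared sequence in the numbers of pairs of these baits was not tested. The testis-specific Hist1h2aa/Hist1h2ba bait listed 2 to 19 pairs, with a median of 8.5. The Hist1h2aj/Hist1h2bm/Hist1h3h bait, an H2A pseudogene with an H2B and an H3 gene, listed 3 to 25 with a median of 15.5, although its neighbor across a single HindIII site is the highly connected Hist1h2ai/Hist1h2bl bait.

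The 10 Hist1h genes without a bait lay on 5 fragments and could be seen only as partners. The fragment of the H2A and H2B genes Hist1h2an and Hist1h2bp was listed with 5 to 22 Hist1h baits per library, 2 to 17 of them in other subclusters, that of the H2B gene Hist1h2bj with 1 to 14, and that of the H4 gene Hist1h4b with 2 to 10. The fragment of Hist1h2ao, Hist1h2bq and Hist1h4m was listed with no bait of the genome in any library, and that of Hist1h2ap, Hist1h2br and Hist1h4n with 0 to 3. These last 2 fragments shared 43.6% and 38.6% of their 75-base stretches with the rest of the region, against 1.26% to 21.49% for the other 3. The part of shared sequence in their missing contacts was not tested.

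Within subclusters, many of the possible pairs of Hist1h baits were listed. In the centromeric subcluster 10 of 13 pairs of non-adjacent baits were listed in at least 7 of the 14 libraries, against 10.3% of all bait pairs at the same distances (12.8 to 66.1 kb). In the telomeric subcluster 69 of 133 were, or 51.9%, against 9.41% of all bait pairs at 2.25 to 233.9 kb. The 2 middle baits, at 7.73 kb from each other, were listed together in no library. Over all 147 within-subcluster pairs, 50.3% to 55.8% were listed in the Hox-negative libraries (mean 52.9% ± 2.45, SD, n = 6) and 51% to 57.1% in the Hoxa2-expressing ones (55.2% ± 2.17, n = 6). The 2.27-point difference stayed within the spread of the libraries (exact permutation p = 0.113, two-sided). The knockout libraries gave 41.5% and 44.9% and wild-type PA2 51% and 56.5%, so that both knockout values lay below all 12 wild-type values (exact permutation p = 0.333, which is the minimum for 2 libraries against 2).

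The subclusters contacted each other across the 1.49-Mb gap. Of the 102 pairs between centromeric and telomeric baits, 1746 to 2046 kb apart, 72 (70.6%) were listed in at least 7 libraries, against 0.302% of all bait pairs at that distance, and 31 were listed in all 14. Of the 34 pairs between middle and telomeric baits, 24 (70.6%) were, against 0.217% of bait pairs at 1487 to 1728 kb. Of the 12 pairs between centromeric and middle baits 11 were, against 6.59%. These shares over all bait pairs include the Hist1h pairs themselves, which made 72 of the 231 pairs behind the 0.302%. Per library, 40.2% to 92.2% of the centromeric with telomeric pairs were listed (median 68.1%), while at the same distance the share over all baits ran from 0.273% to 0.737% (median 0.532%). No listed pair of the 14 libraries joined the testis-specific bait or the Hist1h2al pseudogene bait to any other Hist1h bait. For the testis-specific bait and the telomeric subcluster, 168.6 to 402.5 kb away, 0 of 17 pairs were listed, where 6.8% of bait pairs at that distance were listed in at least 7 libraries. For the same bait and the centromeric subcluster, 0 of 6 were, against 0.0312%. With so few possible pairs, 0 is close to what these background shares give, so the absence was not read as a result.

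Many histone genes are near copies of each other, so that shared sequence could move reads between them. Among the 102 centromeric with telomeric pairs, 44 shared at least 1 exact 75-base stretch and 58 did not. Of the 58 that shared none, 43 (74.1%) were listed in at least 7 libraries, and of the 44 that shared sequence 29 (65.9%) were. In the middle with telomeric pairs the counts were 9 of 16 (56.25%) without and 15 of 18 (83.3%) with shared sequence. In the centromeric with middle pairs they were 4 of 4 without and 7 of 8 with it. The part of shared sequence in the contacts between subclusters was not tested.

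**Figure D1:**
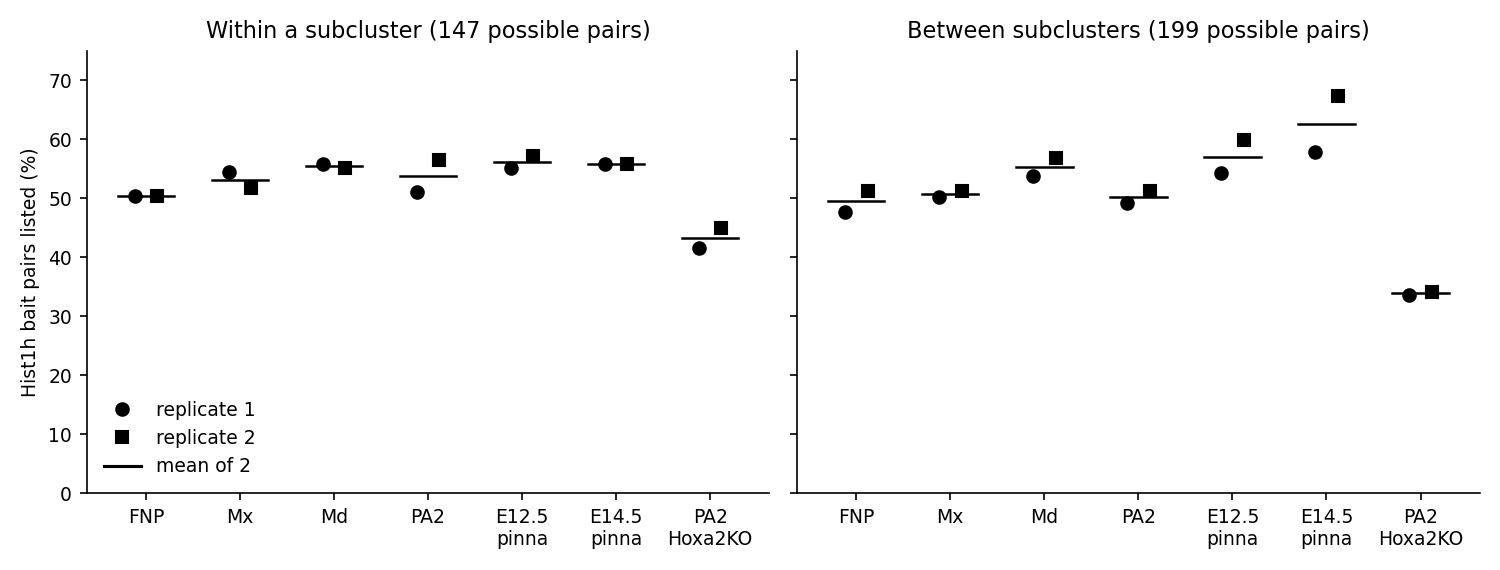
Percent of possible Hist1h bait pairs with a score of 5 or more, within a subcluster (left) and between subclusters (right, all 199 pairs including the testis-specific and pseudogene baits), in each of the 14 libraries. Circles are replicate 1, squares replicate 2, and lines the mean of 2. Between subclusters the knockout libraries (33.7% and 34.2%) sit below all wild-type libraries and E14.5 pinna replicate 2 (67.3%) is the highest.

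Hist1h baits were listed more often with fragments of another subcluster than with those between. Pooled over baits, 16.7% to 46.6% of the possible pairs with fragments of another subcluster were listed per library, and 0.979% to 2.18% of those with fragments in the intervals (at least 50 kb from any Hist1h bait). The subclusters were higher in 14 of 14 libraries, by a mean of 29.4 points (30.9% against 1.51%, exact sign-flip permutation test over libraries, two-sided, p = 0.000122, the smallest that 14 libraries allow). Captured fragments are enriched at both ends of a pair, but the contrast was also present in unbaited fragments alone, with medians of 20.9% and 1.39%. The intervals were not alike. Between the centromeric and middle subclusters 4.74% to 14.3% of the possible pairs were listed (median 7.44%), and on the last 92 fragments before the telomeric subcluster 3.83% to 6.74% (median 5.54%). On the 390 fragments between them, which lie within chr13:22099070-23197456 in the Vmn1r region, 0 to 2 of 9750 possible pairs were listed per library, while 168 of these fragments were listed with at least 1 bait of the genome.

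**Figure D2:**
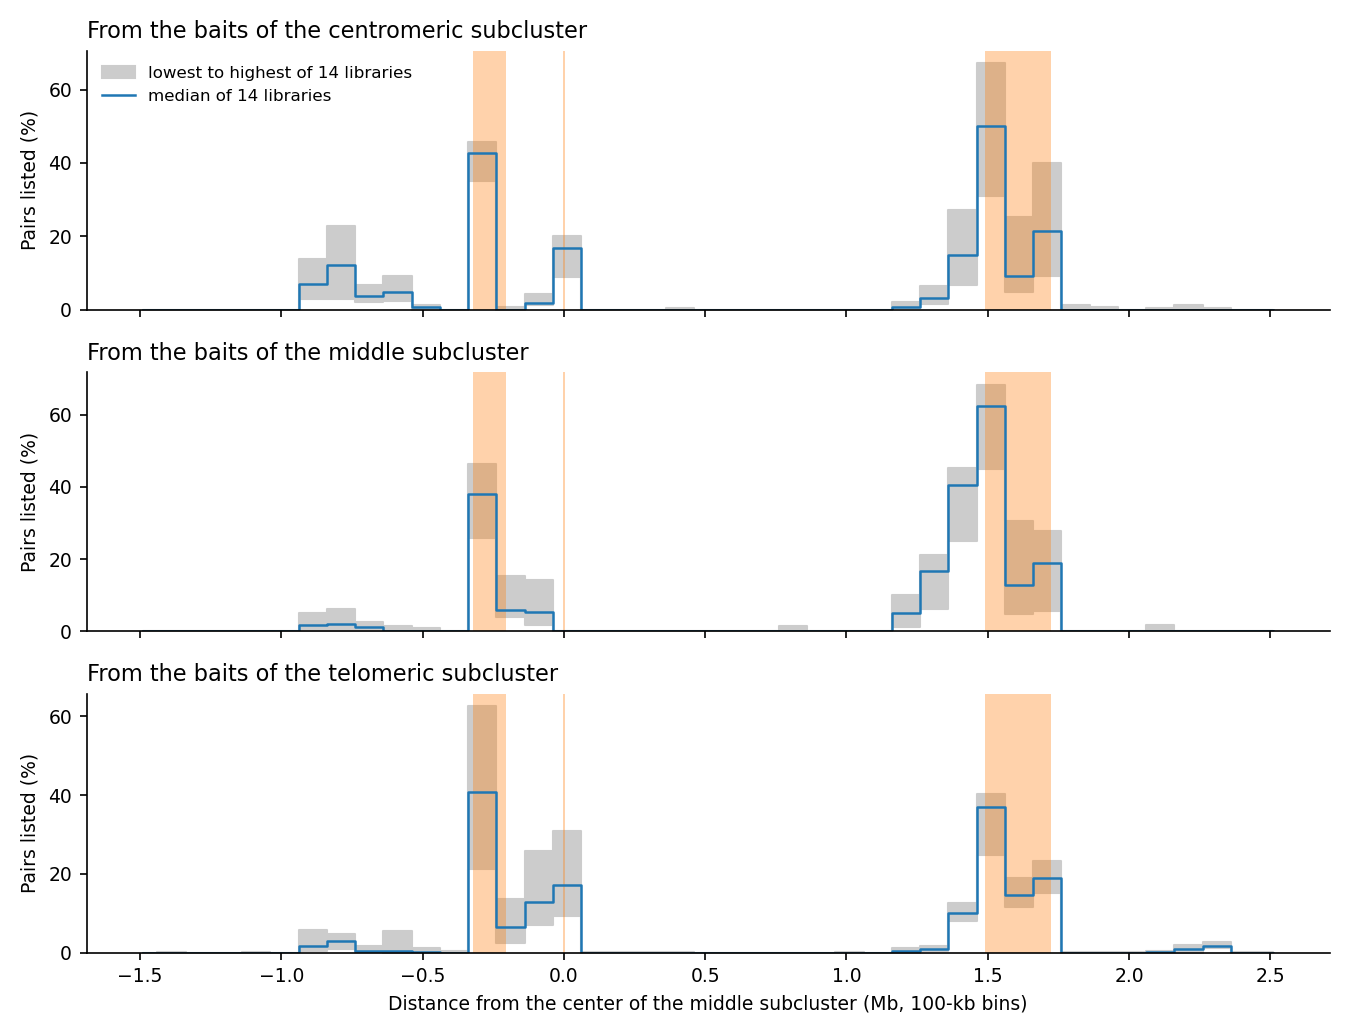
Percent of possible pairs listed from the baits of the centromeric, middle and telomeric subclusters to all fragments in 100-kb bins, against distance from the center of the middle subcluster. The blue line is the median of 14 libraries, gray spans the lowest to the highest library, and orange marks the 3 subclusters. Listed pairs peak at the other subclusters and their edges and are close to 0 across most of the long gap.

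The 10 baits with the most pairs between subclusters came from all 3 of them. The bait of the H2A gene Hist1h2ag and the H4 gene Hist1h4i, in the middle subcluster, had 21 or more of its 25 possible partners in other subclusters in all 12 wild-type libraries, and 16 and 11 in the knockout replicates. The Hist1h2ai/Hist1h2bl bait had 14 to 19 of 21 (median 18), and the bait of the linker histone gene Hist1h1b with the H3 gene Hist1h3i had 12 to 18 of 21 (median 16). For these 3 baits the knockout replicates lay below or among the lowest wild-type libraries. The other centromeric and middle baits among the 10 were Hist1h2ak/Hist1h2bn (H2A and H2B, 3 to 19), the H4 baits Hist1h4k (5 to 19) and Hist1h4j (8 to 18), and Hist1h2ah/Hist1h2bk (H2A and H2B, 10 to 17 of 25). The telomeric baits of the linker histone gene Hist1h1d with the H4 gene Hist1h4f, of Hist1h2ae and of the H3 gene Hist1h3e had 10 possible partners each and were listed with 7 to 8, 7 to 8 and 6 to 8 of them.

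The highest median score between subclusters joined Hist1h2ag/Hist1h4i to the bait of Hist1h2ad, Hist1h2bf and Hist1h3d, 1533 kb away. Its median was 71.0 over the 14 libraries. Wild-type scores ran from 33.95 to 166.85, and the knockout replicates gave 6.58 and 13.97, below all of them. The pair of Hist1h2ag/Hist1h4i with Hist1h3e had a median of 62.0 (18.61 to 141.49), and that of Hist1h2ai/Hist1h2bl with the H4 bait Hist1h4d a median of 51.9 (16.9 to 127.76). Scores of this size were not evenly spread: 887 Hist1h entries scored 30 to 35, against 590 from 25 to 30. The pair of Hist1h2ak/Hist1h2bn with Hist1h2ae had the score 33.53 in 6 libraries. The order of scores near this level therefore carries little information.

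Over the conditions, the share of possible between-subcluster pairs that were listed was 47.7% to 56.8% in Hox-negative libraries (mean 51.8% ± 3.10, SD, n = 6) and 49.2% to 67.3% in Hoxa2-expressing ones (56.6% ± 6.56, n = 6). The difference of 4.77 points did not exceed the spread (exact permutation test, two-sided, p = 0.145). Without PA2 replicate 1 it was 6.25 points (exact permutation p = 0.0433), and without it the within-subcluster difference was 3.11 points (exact permutation p = 0.0433). That library is from E10.5, the stage of all Hox-negative libraries. At E10.5 the between-subcluster mean of PA2 (50.3%) lay below the Hox-negative mean (51.8%), so the higher Hoxa2-expressing mean lay in the pinna libraries. The pinna libraries gave 54.3%, 59.8%, 57.8% and 67.3% (E12.5, then E14.5) and PA2 49.2% and 51.3%, without overlap (difference 9.55 points, exact permutation p = 0.133, where 4 against 2 libraries allow no less than 0.0667). The knockout gave 33.7% and 34.2%, against the same PA2 libraries, a difference of -16.3 points (exact permutation p = 0.333, the smallest possible). Restricted to the same number of top-scoring same-chromosome pairs per library, the direction of all 3 between-subcluster differences was kept.

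The reach of the Hist1h contacts was set beside that of the rest of the genome. This comparison was chosen after the values were seen and has no test. Pairs spanning 1.4 to 2.1 Mb, the distance from the telomeric to the other subclusters, made up 40.3% to 42.9% of the same-chromosome pairs of the Hist1h baits in the 8 wild-type E10.5 libraries, 46.1% and 49.5% in E12.5 pinna, 52.1% and 54.1% in E14.5 pinna, and 37.2% and 37.8% in the knockout. The 3 sets of libraries did not overlap. For all other baits the share was 4.33% to 6.4% in the wild-type E10.5 libraries, 4.09% and 5.39% in E12.5 pinna, 4.74% and 6.05% in E14.5 pinna, and 3.6% and 4.05% in the knockout, where the E10.5 and pinna values overlapped and the knockout values were again the lowest.

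**Figure D3:**
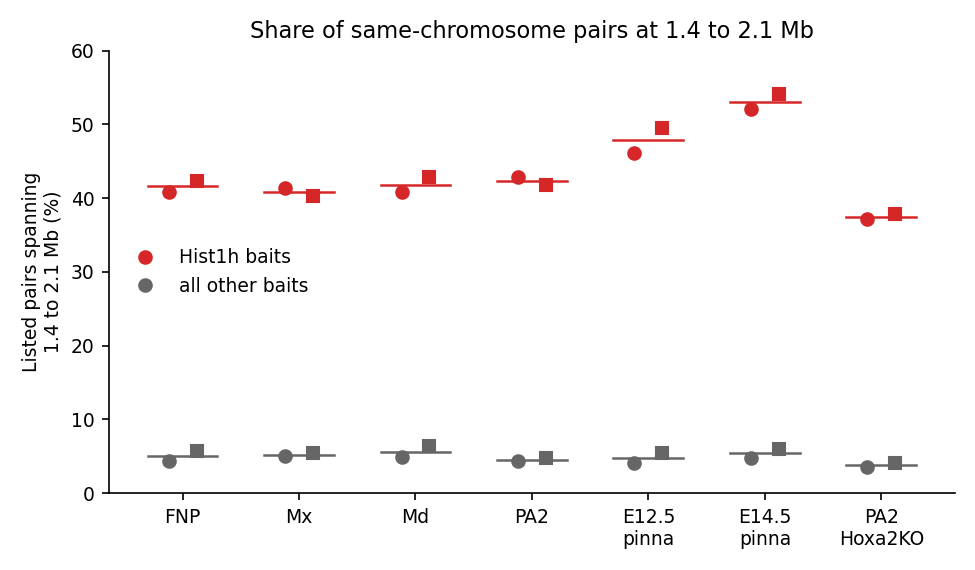
Share of listed same-chromosome pairs that span 1.4 to 2.1 Mb, for Hist1h baits (red) and all other baits (gray), in the 14 libraries. Circles are replicate 1, squares replicate 2, and lines the mean of 2. Hist1h baits reach 52.1% and 54.1% in E14.5 pinna and 37.2% and 37.8% in the knockout, against 3.6% to 6.4% for other baits.

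Scores of single pairs were transformed by asinh, the inverse hyperbolic sine, and compared genome-wide in limma. Differences are given on that scale. Between Hoxa2-expressing and Hox-negative libraries, 3 of 2277 Hist1h pairs had a Benjamini-Hochberg adjusted p below 0.05 in limma, 2 higher and 1 lower, where 0.00559% and 0.0147% of all 286137 pairs were called in these directions. The pair of Hist1h2ai/Hist1h2bl with Btn1a1, the gene of the milk-fat protein butyrophilin on the centromeric side of the telomeric subcluster, was unlisted in all 6 Hox-negative libraries and scored 5.78 to 25.27 (median 11.05) in the Hoxa2-expressing ones. It was also listed in both knockout libraries, at 7.29 and 8.97. The pair of the same bait with Hist1h3e scored 32.40 to 63.36 in Hox-negative and 52.27 to 157.76 in Hoxa2-expressing libraries, which overlapped (difference 0.79 ± 0.13, SE, adjusted p = 0.0283 in limma). The pair of Hist1h2af/Hist1h3g/Hist1h4h with the unbaited fragment of Mir1983, in the gap between centromeric and middle subclusters, scored 5.28 to 15.85 in Hox-negative libraries and was unlisted in all Hoxa2-expressing ones. The pairs with Btn1a1 and Mir1983 entered the fit only through the group in which they were listed, so their values are a description and their calls are no support. In the knockout replicates the Mir1983 pair was at 0 and 11.24. Scores of the 2 groups did not overlap for 4 Hist1h pairs that were higher and 11 that were lower, against 0.16% and 0.232% of all pairs. The mean was higher for 1193 of the 2277 (52.4%), against 47.9%. By distance, none of 837 Hist1h pairs up to 0.3 Mb apart was called in limma, where 0.000854% and 0.00512% of other pairs were higher and lower, and all 3 calls lay among the 1081 pairs at 1.4 to 2.1 Mb, where 0% and 0.0131% were. The median difference was -0.08 at the short and 0.23 at the long distance, and -0.01 and -0.02 in other pairs. No Hist1h pair was called without the 2 merged libraries, nor without Mx replicate 1, Md replicate 2, E12.5 pinna replicate 2 or E14.5 pinna replicate 1, and 1 was called without Mx replicate 2, Md replicate 1, E12.5 pinna replicate 1 or E14.5 pinna replicate 2. Without PA2 replicate 1 or 2, 5 and 7 were called. Over baits, 23 of 26 tested Hist1h baits listed more pairs in Hoxa2-expressing libraries, against 48.2% of all baits, with a median difference of 0.16 on the log2 scale, but baits that contact each other share pairs. None passed an adjusted p of 0.05 in limma, at a background of 1.17% higher and 0.637% lower, and 4 had an unadjusted p below 0.05.

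Between pinna and PA2, 20 of 1620 Hist1h pairs passed in limma, 9 higher and 11 lower (0.556% and 0.679%), against 0.582% and 0.389% of all 161463 pairs, so the Hist1h shares were close to the background. The balance of directions was not stable. Without PA2 replicate 2, 14 Hist1h pairs were higher and 2 lower, without PA2 replicate 1, 6 and 3, and on leaving out any 1 pinna library 2 to 3 were higher and 5 to 13 lower. Without the merged libraries it was 2 and 8 (235 and 656 of all pairs), and with a listing in at least 2 libraries all pairs gave 1016 higher and 1899 lower. Scores did not overlap for 118 Hist1h pairs that were higher and 146 that were lower (7.28% and 9.01%), against 5.56% and 9.83%. Up to 0.3 Mb, 1 of 683 Hist1h pairs was higher and 6 were lower, against 0.719% and 0.494% of other pairs, and at 1.4 to 2.1 Mb 8 of 744 were higher and 4 lower (1.08% and 0.538%), against 0.561% and 0.127%. The median difference was -0.18 and 0.40 at these distances, and -0.09 and 0.14 in other pairs. Of the 118 Hist1h bait pairs between subclusters, 92 had a higher mean in pinna (median difference 0.41) and 1 was called, while of the 86 within subclusters 28 did (median -0.15) and none was called. The 5 largest called increases joined Hist1h4j to an unbaited fragment of the telomeric subcluster (0 and 0 in PA2, 15.04 to 18.79 in pinna), Hist1h2ai/Hist1h2bl to the fragment of Gm46404 (0 and 0, 11.82 to 15.05) and to a fragment at chr13:23736022-23736549 (0 and 0, 8.75 to 18.99), Hist1h1d/Hist1h4f to the fragment of Gm11282 (0 and 0, 5.02 to 20.28) and Hist1h2ae to Pom121l2 (0 and 0, 5.09 to 12.78). The first 3 were listed in 5, 6 and 6 of the 6 Hox-negative libraries too. The pairs with Gm11282 and Pom121l2, both between the centromeric and middle subclusters, were unlisted in all 10 E10.5 libraries, knockout included. They are 2 of 4 called pairs that were listed in the 4 pinna libraries alone and so entered the fit only through them, and their values are a description without a test. Of the called decreases, 4 of the 5 largest belonged to the Hist1h2af/Hist1h3g/Hist1h4h bait: those with Gm11278 (7.97 and 25.45 in PA2) and with the fragments at chr13:23300110-23302115 (10.56 and 10.96) and of 4930557F10Rik (7.92 and 10.64) were unlisted in all 4 pinna libraries, and that at chr13:23402119-23402902 (14.85 and 16.05) was listed in 1, at 6.36. The fifth joined the testis linker histone gene Hist1h1t to a fragment 63.1 kb away (9.92 and 6.40, and unlisted in all 4 pinna libraries). The adjusted p of the other 8 of these 10 in limma ran from 0.00116 to 0.0347. Without the 2 merged libraries 10 Hist1h pairs were called, with 8 to 10 on leaving out PA2 replicate 1, E12.5 pinna replicate 2 or either E14.5 pinna replicate. No Hist1h bait passed in its number of pairs (background 1.93% higher, 1.99% lower), with 5 of 26 at an unadjusted p below 0.05. The lowest belonged to Hist1h4j, with 37 and 44 pairs in PA2 and 55, 80, 64 and 88 in pinna (log2 difference 0.71 ± 0.20, adjusted p = 0.0515).

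Many Hist1h contacts fell in the knockout. Of 1620 Hist1h pairs, 93 were lower in Hoxa2KO than in PA2 (5.74%) and 0 higher in limma, against 1.37% lower and 0.0576% higher of all 161463 pairs. A pair had to be listed in at least 4 of the 14 libraries, which a pair listed only in the 2 knockout libraries could not meet. With a listing in at least 2 libraries the direction over all 312112 pairs turned (7838 higher, 3859 lower), while 13 Hist1h pairs were higher and 109 lower. All 93 Hist1h pairs called lower were listed in at least 6 of the 10 libraries outside this comparison. Scores of the 2 knockout libraries lay below both PA2 scores for 651 Hist1h pairs (40.2%, background 22.4%). The median difference was -0.62 over the Hist1h pairs and -0.09 over all pairs. Among pairs 1.4 to 2.1 Mb apart, 52 of 744 Hist1h pairs were called lower (6.99%), with a median difference of -1.06, against 0.922% of the 5530 pairs of other baits (median -0.04). Among those up to 0.3 Mb apart, 33 of 683 were (4.83%, median -0.38), against 1.49% (median -0.10). None of these backgrounds was matched on score, and a high score leaves more room to fall. Hist1h baits held 887 of the 5698 listed entries that scored 30 to 35, and 10738 of the 2348305 from 5 to 10. The part of the score level in the Hist1h excess was not tested. The knockout replicates also listed the fewest same-chromosome pairs of all libraries, and the part of that in the result was not tested beyond quantile normalization of the scores, after which 88 Hist1h pairs were called lower and 1 higher.

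The decreases covered bait pairs between subclusters (16 of 118), within subclusters (9 of 86), and Hist1h baits with other fragments of another subcluster (29 of 398), of the same subcluster (15 of 394) and nearby outside the subclusters (24 of 617). The 10 largest were all unlisted in both knockout libraries. Hist1h2ak/Hist1h2bn with Hist1h2ae scored 32.43 and 33.53 in wild-type PA2 and 32.43 to 63.03 in the Hoxa2-expressing libraries (difference -4.19 ± 0.18, adjusted p = 1.97e-09 in limma). This pair had the repeated score of 33.53 in 6 libraries, so its SE and p do not measure how exact the difference is. The Hist1h2ak/Hist1h2bn bait scored 32.16 and 33.54 with Hist1h3e, and 31.50 and 14.94 with the H2A bait Hist1h2ab. The H4 bait Hist1h4k scored 21.12 and 37.50 with the H2B bait Hist1h2bg, and Hist1h2ag/Hist1h4i scored 16.21 and 31.73 with the H3 bait Hist1h3b. These 5 pairs between subclusters were listed in all 12 wild-type libraries. Hist1h3e lost 2 neighboring unbaited fragments of the centromeric subcluster, at chr13:21784674-21785566 (18.54 and 83.76) and chr13:21785649-21786746 (32.21 and 36.11), and Hist1h2ag/Hist1h4i lost fragments starting at chr13:23441092 (16.42 and 30.99) and chr13:23586376 (20.25 and 19.87). The last of the 10 joined Hist1h2aj/Hist1h2bm/Hist1h3h to the bait of the olfactory receptor gene Olfr1359 just outside the centromeric subcluster (36.74 and 33.90 in PA2, 17.78 to 36.74 in all 12 wild-type libraries, adjusted p = 3.98e-08). An unlisted score can lie anywhere below 5, so the size of these differences is not exact.

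**Figure D4:**
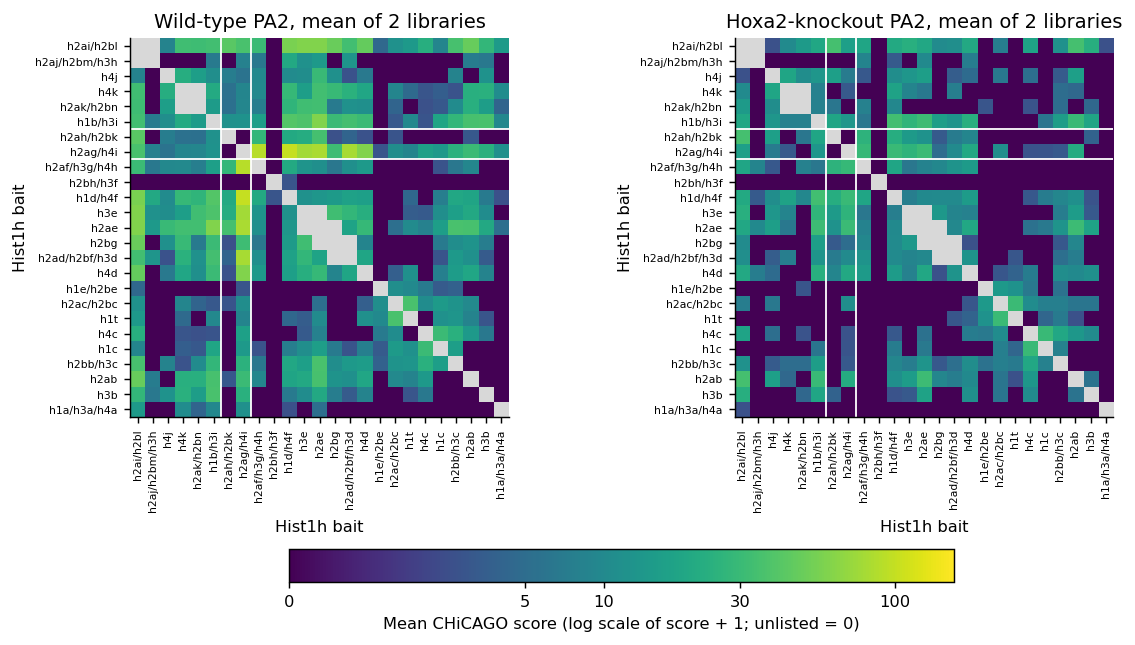
Mean CHiCAGO score between the 25 Hist1h baits of the 3 subclusters in wild-type PA2 (left) and Hoxa2-knockout PA2 (right), in genomic order, on a log color scale (score + 1) with unlisted pairs at 0. White lines part the subclusters and gray marks pairs of the same or adjacent fragments. Of the 118 tested pairs between subclusters 92 had a lower mean in the knockout and 16 were called lower.

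Counted by bait, 19 of the 26 tested Hist1h baits listed fewer pairs in the knockout after each library was centered on its median bait (48.9% of all baits did), with a median log2 difference of -0.40. In limma 1 was called lower (background 0.804% lower, 0.0392% higher), the Hist1h2aj/Hist1h2bm/Hist1h3h bait, with 16 and 15 pairs in PA2, 3 and 4 in the knockout and 13 to 25 in the 12 wild-type libraries (log2 difference -1.59 ± 0.29, adjusted p = 0.00705). The call was lost on leaving out PA2 replicate 1, PA2 replicate 2 or Hoxa2KO replicate 1. The baits with the most called pairs were Hist1h2ai/Hist1h2bl (20 of 163), Hist1h2ag/Hist1h4i (13 of 126) and Hist1h3e (11 of 111).

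Genes of other kinds in and around the cluster were contacted unevenly. Of the 39 fragments with a start site of the 20 non-histone genes within 100 kb of a subcluster, 10 were listed with a Hist1h bait in all 14 libraries and 23 in none. Olfr1359 was listed with 11 to 24 Hist1h baits per library (24 different ones in all). Abt1, an activator of basal transcription, was listed with 6 to 15, and Hfe, the regulator of iron uptake that lies within the telomeric subcluster, with 4 to 11. The baits of the phosphate transporter genes Slc17a1, Slc17a3 and Slc17a4 and of the calcium-binding protein gene Scgn were listed with none. That of Slc17a2 was listed with 1 Hist1h bait in 6 of the 14 libraries. The 18 baits of these neighbors listed a median of 21.82 pairs each, and none of the 14 tested was called in any of the 3 comparisons. Of the 69 Vmn1r genes between the subclusters 19 had a bait, on 18 fragments, which listed a median of 4.68 pairs each.

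Histone genes and their regulators elsewhere in the genome were examined as partners. The 11 histone variant genes (such as H2afz and H3f3a) are expressed throughout the cell cycle. The other list held 17 genes of histone transcription and mRNA processing factors (such as Npat, Slbp and Casp8ap2). Neither list had a listed pair with a Hist1h bait in any library. The lists lay on 11 and 19 of the 22171 baits. Hist1h baits had 121 listed entries with other chromosomes, of which 57 lay outside the other histone loci. With so few entries, lists this small could be missed by chance, so their absence was not read as a result. None of the 4 tested variant baits was called in any comparison, and of the 14 tested factor baits 1 was lower in the knockout (0.804% of all baits were) and none was called otherwise. The 14 replication-dependent genes of the smaller Hist2h, Hist3h and Hist4h loci lay on 7 baits. In the 12 libraries used for pairs between chromosomes, Hist1h baits had 0 to 11 listed pairs per library with the Hist2h locus. They had 0 to 1 with the Hist3h locus and none with the Hist4h locus. Of the 5 tested baits of these loci, 1 was lower in pinna than in PA2 (1.99% of all baits were) with none called otherwise.

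Between chromosomes, 4 to 18 pairs of the Hist1h baits were listed per library in the 12 libraries used. This was a mean of 0.373 pairs per Hist1h bait (0.148 to 0.667), against 0.250 per other bait (0.168 to 0.390), and the Hist1h value was the higher in 10 of 12 libraries. Without Hist1h1t it was the higher in 8 of 12. As a share of all their listed pairs it was 0.255% to 1.05%, against 2.51% to 5.39% over all baits. The share has all listed pairs as its denominator, and Hist1h baits list many on their own chromosome, so the difference between the shares was not read as a result. The Hist1h share was 0.672% ± 0.337 (SD, n = 5) in Hoxa2-expressing and 0.823% ± 0.123 (n = 5) in Hox-negative libraries, which did not differ beyond their spread (exact permutation test, two-sided, p = 0.381).

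Of the 121 entries between chromosomes, 62 (51.2%) led to the Hist2h locus on chromosome 3 and 2 to the Hist3h locus on chromosome 11, with none to the single Hist4h gene on chromosome 6. Hist2h partners were seen in 11 of the 12 libraries, with none in Hoxa2KO replicate 2, and from 13 of the 27 Hist1h baits. Of 82 pairs seen in any library 8 recurred in at least 3 (over all baits 6.35% recurred), and 7 of the 8 led to Hist2h. The pair of Hist1h2ae with the H4 gene Hist2h4 was listed in 9 libraries at 5.95 to 24.38, and was unlisted in E14.5 pinna replicate 1 and in both knockout replicates. Hist1h2ae also recurred with the bait of the H2A and H3 genes Hist2h2aa2 and Hist2h3c2 (6 libraries, 5.05 to 23.23) and with that of their copies Hist2h2aa1 and Hist2h3c1 (5 libraries, 6.19 to 28.05). Hist1h2ab recurred with Hist2h4 (5 libraries) and with Hist2h2aa1 and Hist2h3c1 (3), Hist1h3e with Hist2h4 (3), and Hist1h1d/Hist1h4f with Hist2h2aa2 and Hist2h3c2 (3).

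Shared sequence was present in part of these pairs. The 2 Hist2h baits with Hist2h2aa2 and Hist2h2aa1 shared 57.9% of the 75-base stretches of the former with each other, so that their reads cannot be told apart with certainty. Of the 30 distinct Hist1h with Hist2h pairs 11 shared a 75-base stretch and 19 did not. Of the 7 recurrent ones 4 shared none, among them all 3 with Hist2h4. The eighth recurrent pair joined the testis linker histone bait Hist1h1t to an unbaited fragment at chr4:145557562-145557991 with no annotated start site, at 16.57, 9, 18.24 and 17.30 in FNP replicate 1, PA2 replicate 1 and the 2 knockout replicates, and shared no 75-base stretch with it. Hist1h1t gave 20 of the 57 entries outside the histone loci. Of these, 19 led to 12 fragments between chr4:145441915 and chr4:147611073, in 9 of the 12 libraries at 5.16 to 26.92, and none of the 12 fragments shared a 75-base stretch with the bait. Shorter or inexact copies were not looked for, here or in the pairs with Hist2h, so the part of shared sequence was not tested.

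**Figure D5:**
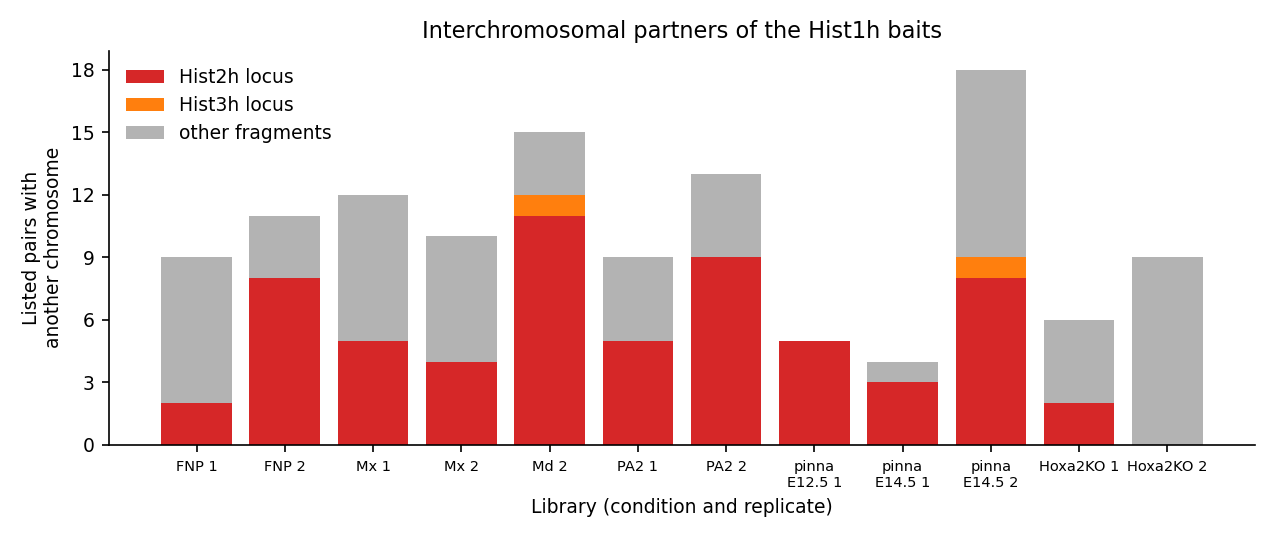
Number of listed pairs between Hist1h baits and other chromosomes in each of the 12 libraries used, stacked by partner. Hist2h partners (red) range from 0 in Hoxa2KO replicate 2 to 11 in Md replicate 2.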

How the data were processed

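PCHi-C reads (75-bp, paired-end) had been mapped by the authors to GRCm38/mm10 with HiCUP (version 0.6.1) and scored with CHiCAGO (version 1.24.0, minFragLen 150, binsize 20 kb), per the study's methods. The deposited unit is the CHiCAGO score of each listed pair, without read counts, so depth and counting error are unknown. Pairs with an end outside chromosomes 1 to 19, X and Y were left out, and unlisted pairs set to 0. Groups came from the labels. Members and lists were chosen with earlier results of these data known.

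Shares of listed pairs were compared over libraries by exact permutation tests. Pair scores, as asinh(score), were fitted genome-wide with limma (version 3.58.1) for pairs listed in at least 2 (12 wild-type libraries) or 4 (all 14) libraries, and log2(listed pairs + 1) per bait for baits with a mean of at least 5, with Benjamini-Hochberg adjustment over all features. Intervals between subclusters were taken up to the Hist1h2aa/Hist1h2ba bait. The pairs printed were the 10 largest by difference among those called per comparison, the 10 baits with the most and 3 with the fewest contacts, and recurrent interchromosomal pairs. Other thresholds, filters, normalizations, gaps and left-out libraries were tried. The fits were checked on simulated data. Shared sequence is an exact 75-base match on either strand, and shorter or inexact copies were not looked for.

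Same-numbered replicates did not deviate together (correlations 0.00209 to 0.0745 over 21 pairs of conditions), so the numbers do not pair the samples.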

Additional observations from a re-analysis of the deposited data

Results flagged for a closer look

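Of 51 sets of libraries examined, 2 held a library set apart from the rest by Dixon's test. The sets were of Hox-negative (6), Hoxa2-expressing (6) or pinna (4) libraries. The pinna libraries are part of the Hoxa2-expressing ones, so the sets are not separate. Chance marks about 1 in 20 separate sets. Among the Hoxa2-expressing libraries, PA2 replicate 1 listed 51.0% of the possible within-subcluster Hist1h pairs, against 55.1% to 57.1% in the other 5. Among the Hox-negative libraries, Md replicate 2 listed 17 same-chromosome pairs of the Hist1h2bh/Hist1h3f bait, against 0 to 2 in the other 5.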

How the results depend on the processing

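Of 250 recalculations of 15 results, 208 kept direction and side of the threshold (for counts, within 1.5 times) and 8 turned direction. The within-subcluster difference between Hoxa2-expressing and Hox-negative libraries (2.27) became -0.101 with mean scores and -0.889 with subclusters split at 50-kb gaps, and ran from 1.75 to 3.11 on leaving out each library. That between pinna and PA2 (2.21) became -3.91 at a score threshold of 10, -0.530 with mean scores, -0.318 with scores capped at 20, -0.340 with equal numbers of top pairs, -2 with 50-kb gaps and -0.510 without PA2 replicate 1 (leave-one-out -0.510 to 4.93). The between-subcluster differences ran from 2.63 to 6.25, 7.04 to 11.4 and -17.3 to -15.3 (Hoxa2-expressing, pinna, knockout), and kept direction in every setting run.

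Called Hist1h pairs between Hoxa2-expressing and Hox-negative libraries (3, of 58 genome-wide) numbered 0 (of 14) with pairs listed in at least 4 libraries, 126 (of 17472) in a fit of 7 condition means, 0 (of 10) without the merged libraries and 0 to 7 on leaving out each library. For pinna against PA2 (20 of 1568) they numbered 11 as listed or not, 10 (of 891) without the merged libraries and 8 to 24 on leaving out each. For the knockout (93 of 2309) they numbered 80 to 118, and 122 (13 of them higher, of 11697) with pairs listed in at least 2 libraries. Called Hist1h baits numbered 1 at a threshold of 10 and 1 without the merged libraries in pinna (leave-one-out 0 to 1), and 10 without centering, 2 without the merged libraries and 0 to 2 on leaving out each in the knockout. The causes were not tested. Leaving the merged libraries out of the subcluster shares, the restriction to the 3 subclusters and the interval limits were chosen after seeing the data.

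With the replicate number as a block, called Hist1h pairs numbered 4, 21 and 100, called baits 0, 1 and 2, and the within- and between-subcluster p were 0.12 and 0.135 for Hoxa2-expressing against Hox-negative libraries (exact permutation within blocks). The block changed no other call. Scores below 5 and read depth are unknown, which limits all small differences.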

Other observations

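Interval fragments with a tRNA gene, of which many lie beside the Hist1 genes, were listed with Hist1h baits at a higher rate than those without. This comparison was chosen after the values were seen and has no test. Of the possible pairs between Hist1h baits and the 30 interval fragments with a RefSeq tRNA gene, 9.6% to 20.8% were listed per library (median 13.8%), and of those with the 516 interval fragments without one, 0.465% to 1.19% (median 0.771%). In numbers of pairs the sets were close, with medians of 103.5 and 99.5 per library, and those without a tRNA gene gave more pairs in 3 of the 14 libraries. Within the telomeric end of the gap alone, beyond the Vmn1r genes, the medians were 17.3% for 14 fragments and 3.51% for 78. Between the centromeric and middle subclusters they were 12% for 16 fragments and 4.52% for 27. On the far side of the centromeric subcluster, the medians were 6.14% for 14 fragments and 2.19% for 113. Fragments with a tRNA gene were the higher set in each of these stretches. The Vmn1r region between held no annotated tRNA gene.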
